A study of Mus musculus with 18 samples.

Results

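Nuclear receptors are transcription factors, many of which are switched by small lipophilic ligands. The genes described here are the 37 nuclear receptors that remained after the circadian Rev-erb pair, the Nr4a family and a few others (among them Ppara and Nr1h4) were set aside. They were chosen by symbol. Probe sets annotated to no other symbol were averaged for each receptor, with 4 (Nr2f1) to 17 (Nr6a1) probe sets per receptor, and all 37 were measured among 20358 genes. Total RNA of fat, liver and skeletal muscle from 3 MKR and 3 wild-type (WT) male mice, all aged 10 weeks and of the FVB/N background, was hybridised to 18 whole-transcript arrays, 1 array per tissue and mouse. MKR mice are labelled as carrying a mutation in the IGF1 receptor of skeletal muscle. As background, their transgene is a mutant human IGF1 receptor that blocks IGF1 and insulin signalling, driven by a promoter active in muscle only, and the mice become diabetic. WT mice are labelled as wild type. Arrays are named below by genotype, tissue and mouse number, so that WT fat 1, WT liver 1 and WT muscle 1 come from the same animal, whereas MKR mouse 1 and WT mouse 1 are different animals. All values are log2 intensities, and a difference of 1 is a doubling. The depth of an array has no counting unit, so 3 arrays per group set the precision.

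Most members of the family bind DNA as dimers on repeats of a short hexamer, and many need a retinoid X receptor (RXR) as partner. Thyroid hormone receptors, retinoic acid receptors, PPARs, liver X receptors (LXRs) and the xenobiotic sensors PXR (Nr1i2) and CAR (Nr1i3) are such RXR partners. HNF4A binds as a pair of identical subunits and maintains hepatocyte identity, LRH-1 (Nr5a2) binds alone and controls bile acid genes, and PPAR gamma (Pparg) is the master regulator of adipocytes. Oestrogen-related receptors act with PGC-1 coactivators on mitochondrial genes, and the glucocorticoid (Nr3c1) and mineralocorticoid (Nr3c2) receptors bind steroid hormones.

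The sequences directly before the annotated starts of the most tissue-restricted members were searched for the 2 hexamers AGGTCA, the core element bound by many nuclear receptors, and GTTAAT, the core of the site of the liver factor HNF1, on both strands of the 250 bases before each start. The hexamers do not overlap each other in the windows shown. RefSeq (GRCm38.p6) gave 54 starts for 33 of the 37 receptors. AGGTCA was found before 14.8% of these starts against 14% of all 32851 starts, and GTTAAT before 7.41% against 6.43%. Among the 12 starts of the 7 receptors whose lead over the next WT tissue exceeded 1 (Hnf4a, Nr5a2, Nr1i3, Nr1i2, Pparg, Rxrg and Rarb), 4 held AGGTCA and 3 held GTTAAT. The 6 stretches below are those of these 12 with a hexamer in the last 100 bases, and run from position -100 to -1 before the start on the gene's strand, with the hexamers in capitals. A match is a run of letters and was not tested as a binding site.
Hnf4a chr2:163547055-163547154 (+): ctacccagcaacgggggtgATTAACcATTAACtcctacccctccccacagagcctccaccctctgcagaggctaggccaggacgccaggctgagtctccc
Nr5a2 chr1:136960449-136960548 (-): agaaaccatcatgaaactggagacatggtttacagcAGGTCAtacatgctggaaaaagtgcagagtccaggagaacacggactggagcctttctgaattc
Pparg chr6:115361044-115361143 (+): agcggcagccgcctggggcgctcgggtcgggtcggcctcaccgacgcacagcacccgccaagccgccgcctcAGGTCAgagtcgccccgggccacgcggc
Pparg chr6:115362249-115362348 (+): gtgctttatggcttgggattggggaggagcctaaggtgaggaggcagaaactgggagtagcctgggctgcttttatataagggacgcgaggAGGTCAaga
Rxrg chr1:167598262-167598361 (+): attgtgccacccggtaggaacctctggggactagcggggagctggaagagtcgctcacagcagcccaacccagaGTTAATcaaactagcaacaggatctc
Rxrg chr1:167618165-167618264 (+): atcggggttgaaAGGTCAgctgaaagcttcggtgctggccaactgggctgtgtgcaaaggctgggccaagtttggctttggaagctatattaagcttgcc
In Hnf4a the HNF1 core lay on the opposite strand at -81 and again at -74. The AGGTCA element lay at -64 in Nr5a2, at -28 and -9 before the Pparg starts and at -88 before an Rxrg start.

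The labelled tissues carried their markers: the mean of 6 hepatocyte markers was 12.27 to 12.38 in the liver arrays, and that of 6 muscle markers 11.96 to 12.15 in the muscle arrays. Some arrays stood apart. In MKR fat 1, 16 of 17 epididymis markers lay above all other fat arrays, with a list mean of 10.31 against 4.81 to 5.11, and the mean of 6 adipocyte markers was 9.17 against 10.41 to 10.72. MKR fat 1, WT fat 1 and WT fat 2 also shared high epithelial genes (7 of 8 above the other 3 fat arrays, list means 6.12 to 7.84 against 5.17 to 5.31) and high motile cilia genes (8 of 9, list means 6.14 to 6.39 against 4.85 to 4.94). These lists were drawn up after the arrays had been seen. Results in fat are therefore given with all arrays, and in part also without MKR fat 1 or without these 3 arrays. The last set leaves a lone WT fat array whose spread is taken from the other groups. Where no set is named, a result in fat rests on all arrays. Hepatocyte markers averaged 7.26 in WT muscle 1 and 6.92 in MKR muscle 1, against 5.32 to 6.07 in the other muscle arrays. In whole tissue, fewer cells of a type and less RNA per cell cannot be told apart.

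As a guide to dim signal, the 95th percentile of 985 olfactory receptor genes lay between 5.45 and 5.66 in the 6 groups. Of the 37 receptors, 26 had a group mean above it in at least 1 group, and 17 (WT fat) to 24 (MKR liver) did so per group. The other 11 were at or below it in all groups: Rxrb, Rorb, Vdr, Hnf4g, Nr2e1, Nr2e3, Nr2f1, Esr2, Esrrb, Pgr and Nr5a1. Among them are the receptors of vitamin D (Vdr) and progesterone (Pgr) and the adrenal and gonadal factor SF-1 (Nr5a1).

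Tissue differences in WT mice were tested with limma over the 9 WT arrays, with p-values adjusted over all 20358 genes. Fat and liver differed in 20 of the 37 receptors (36.6% of all genes were called), muscle and liver in 18 (41.1% of all genes), and fat and muscle in 13 (39.3% of all genes). Liver was above both other tissues in 9 receptors (24.3%, against 11% of all genes), fat in 3 (8.11%, against 11%) and muscle in 5 (13.5%, against 12.7%). No tissue difference passed for 11 receptors (29.7%, against 42.1% of all genes).

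**Figure D1:**
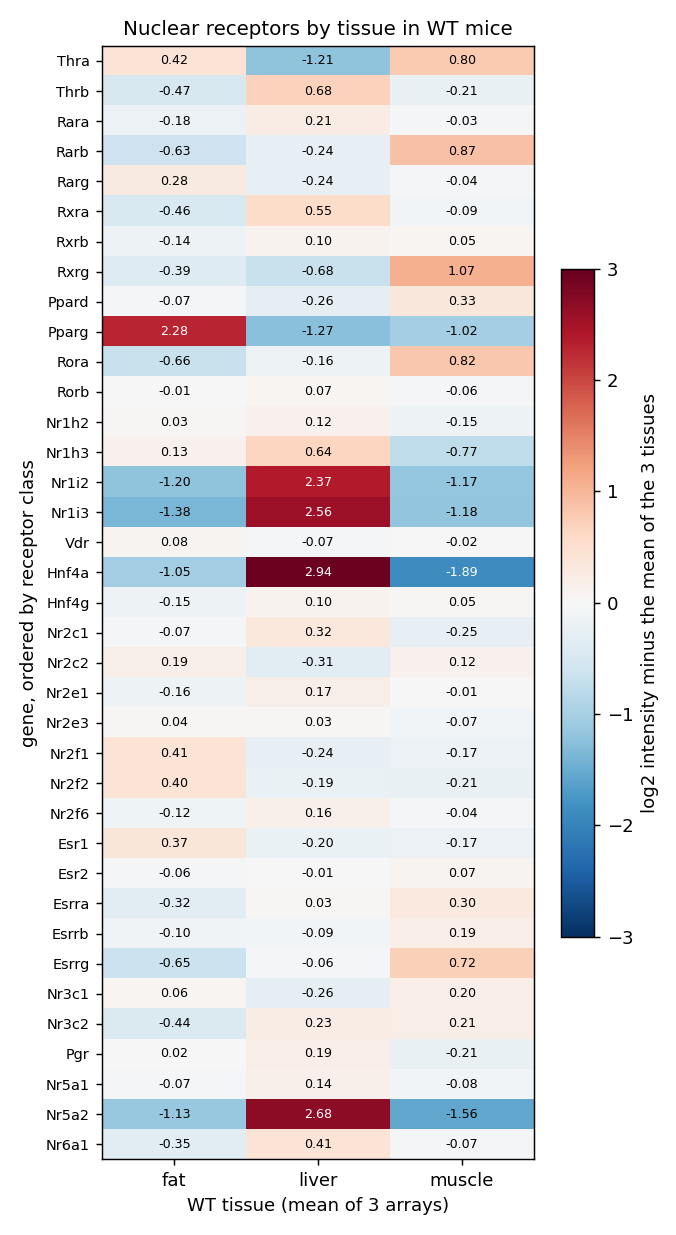
Each row is a receptor and each column a WT tissue. Colour and number give the mean log2 intensity of 3 arrays minus the mean of the 3 tissues. Hnf4a, Nr5a2, Nr1i3 and Nr1i2 stand out in liver and Pparg in fat, and most other rows lie within 1 of their mean.

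Hnf4a, Nr5a2, Nr1i3 and Nr1i2 were the receptors with the widest gaps between liver and the other tissues, each lead being 3.54 or more on the log2 scale. HNF4A is the hepatocyte regulator named above. Hnf4a read 9.91, 9.81 and 9.88 in WT liver, 6.18, 6.38 and 5.06 in WT fat, and 5.05, 5.0 and 5.04 in WT muscle. The fat values were split, with the arrays rich in epithelial genes above the third. Liver exceeded fat by 3.99 ± 0.26 (SE, adjusted p = 9.28e-08) and muscle by 4.84 ± 0.26 (adjusted p = 9.96e-09). Fat also exceeded muscle by 0.84 (adjusted p = 0.0207), but by 0.03 without WT fat 1 and 2 (adjusted p = 0.902).

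Nr5a2 encodes LRH-1, which in liver acts with SHP on bile acid synthesis. It read 9.11, 8.99 and 9.23 in WT liver, 5.81, 5.16 and 4.94 in WT fat, and 4.75, 4.91 and 4.96 in WT muscle. Liver exceeded fat by 3.81 ± 0.19 (adjusted p = 6.91e-09) and muscle by 4.24 ± 0.19 (adjusted p = 1.6e-09). All 11 of its probe sets were highest in liver.

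The xenobiotic sensors induce drug-metabolising enzymes such as the Cyp2b and Cyp3a families. CAR (Nr1i3) read 9.29, 9.46 and 9.12 in WT liver, 5.29, 5.19 and 5.58 in WT fat, and 5.52, 5.50 and 5.62 in WT muscle. PXR (Nr1i2) read 8.10, 8.19 and 8.12 in WT liver, 4.59, 4.55 and 4.55 in WT fat, and 4.51, 4.69 and 4.60 in WT muscle. Neither differed between fat and muscle at the threshold, with intervals for fat minus muscle of -0.48 to 0.08 (Nr1i3) and -0.25 to 0.17 (Nr1i2), and both tissues were near the dim level. Liver exceeded the nearer tissue by 3.74 ± 0.13 for Nr1i3 (adjusted p = 1.63e-10) and by 3.54 ± 0.10 for Nr1i2 (adjusted p = 2.04e-11). In WT muscle 1, the array with the highest hepatocyte markers outside liver, Nr1i3, Nr1i2 and Nr5a2 were below at least 1 other WT muscle array, and Hnf4a read 5.05 against 5.0 and 5.04.

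The remaining liver-high receptors had far smaller leads. Thrb, a thyroid hormone receptor that is the main form in liver, read 8.53, 8.40 and 8.66 in WT liver, 7.77, 7.53 and 7.60 in WT muscle and 7.13, 7.23 and 7.76 in WT fat, a lead of 0.89 ± 0.16 over muscle (adjusted p = 0.000503). Rxra, the RXR that serves most liver heterodimers, read 8.08, 7.99 and 8.0 in WT liver, 7.60, 7.19 and 7.37 in WT muscle and 7.03, 6.95 and 7.06 in WT fat, a lead of 0.64 ± 0.12 (adjusted p = 0.000706). Both sets of liver arrays lay above every WT array of the other tissues. LXR alpha (Nr1h3), the oxysterol sensor, led in liver by 0.50 over fat (adjusted p = 0.00856), and by 0.33 without WT fat 1 and 2 (adjusted p = 0.223). Its muscle mean of 5.12 ± 0.13 (SD, n = 3) was the lowest of the tissues. The orphan receptors Nr6a1 (germ cell nuclear factor) and Nr2c1 (TR2) led by 0.48 and 0.38 in liver, and the call for Nr2c1 held in 5 of 19 other settings. Not all probe sets were highest in liver: 12 of 15 were for Rxra, 11 of 17 for Nr6a1 and 9 of 16 for Nr2c1.

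Pparg was the receptor with the widest lead in fat. It read 9.93, 9.67 and 9.93 in WT fat, 6.41, 6.48 and 6.0 in WT liver, and 6.51, 6.38 and 6.75 in WT muscle. Fat exceeded liver by 3.54 ± 0.15 (adjusted p = 1.8e-09) and muscle by 3.30 ± 0.15 (adjusted p = 5.84e-09), and all 13 probe sets were highest in fat. Liver and muscle overlapped in range. The COUP transcription factors, orphan receptors with roles in vessels and mesenchyme, followed. Nr2f2 (COUP-TFII) read 8.24, 8.30 and 8.0 in WT fat, above 7.42 to 7.68 in WT liver and muscle, a lead of 0.59 (adjusted p = 0.00153 against liver). It was 0.40 above liver without WT fat 1 and 2 (adjusted p = 0.104). Nr2f1 (COUP-TFI) read 5.49, 5.39 and 5.25 in WT fat and 4.70 to 4.84 in the other WT tissues, a lead of 0.58 (adjusted p = 0.00061 against muscle) that lies wholly at dim intensities.

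In muscle, 5 receptors were highest. Rxrg, the RXR with the narrowest tissue range, read 6.37, 6.57 and 6.42 in WT muscle, 4.82, 5.07 and 5.11 in WT fat, and 4.74, 4.68 and 4.71 in WT liver, a lead of 1.45 ± 0.11 (adjusted p = 6.26e-07). Rarb, which is itself a classical retinoic acid target, read 6.73, 6.26 and 6.17 in WT muscle, 5.54, 5.16 and 5.14 in WT liver, and 4.80, 4.81 and 5.06 in WT fat, a lead of 1.11 ± 0.16 (adjusted p = 0.000127). Rora, a constitutively active receptor, read 9.93, 9.95 and 10.07 in WT muscle, 9.02, 8.95 and 9.06 in WT liver, and 8.66, 8.43 and 8.44 in WT fat, a lead of 0.98 ± 0.11 (adjusted p = 8.6e-06). None of these 3 overlapped between muscle and the other WT tissues.

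Esrrg and Ppard act in oxidative metabolism of muscle fibres. In WT mice all 9 Esrrg probe sets but 7 of 11 Ppard probe sets were highest in muscle. Esrrg read 7.39, 6.49 and 7.40 in WT muscle, 6.50, 6.17 and 6.26 in WT liver, and 5.76, 6.06 and 5.34 in WT fat. The second muscle array fell within the liver range, and the lead of 0.79 ± 0.24 over liver (adjusted p = 0.0196) held in 13 of 19 other settings. Ppard read 6.38, 6.41 and 6.36 in WT muscle, 5.99, 5.97 and 5.99 in WT fat, and 5.77, 5.97 and 5.62 in WT liver, a lead of 0.40 ± 0.11 over fat (adjusted p = 0.0105), which had an adjusted p of 0.113 without WT fat 1 and 2.

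**Figure D2:**
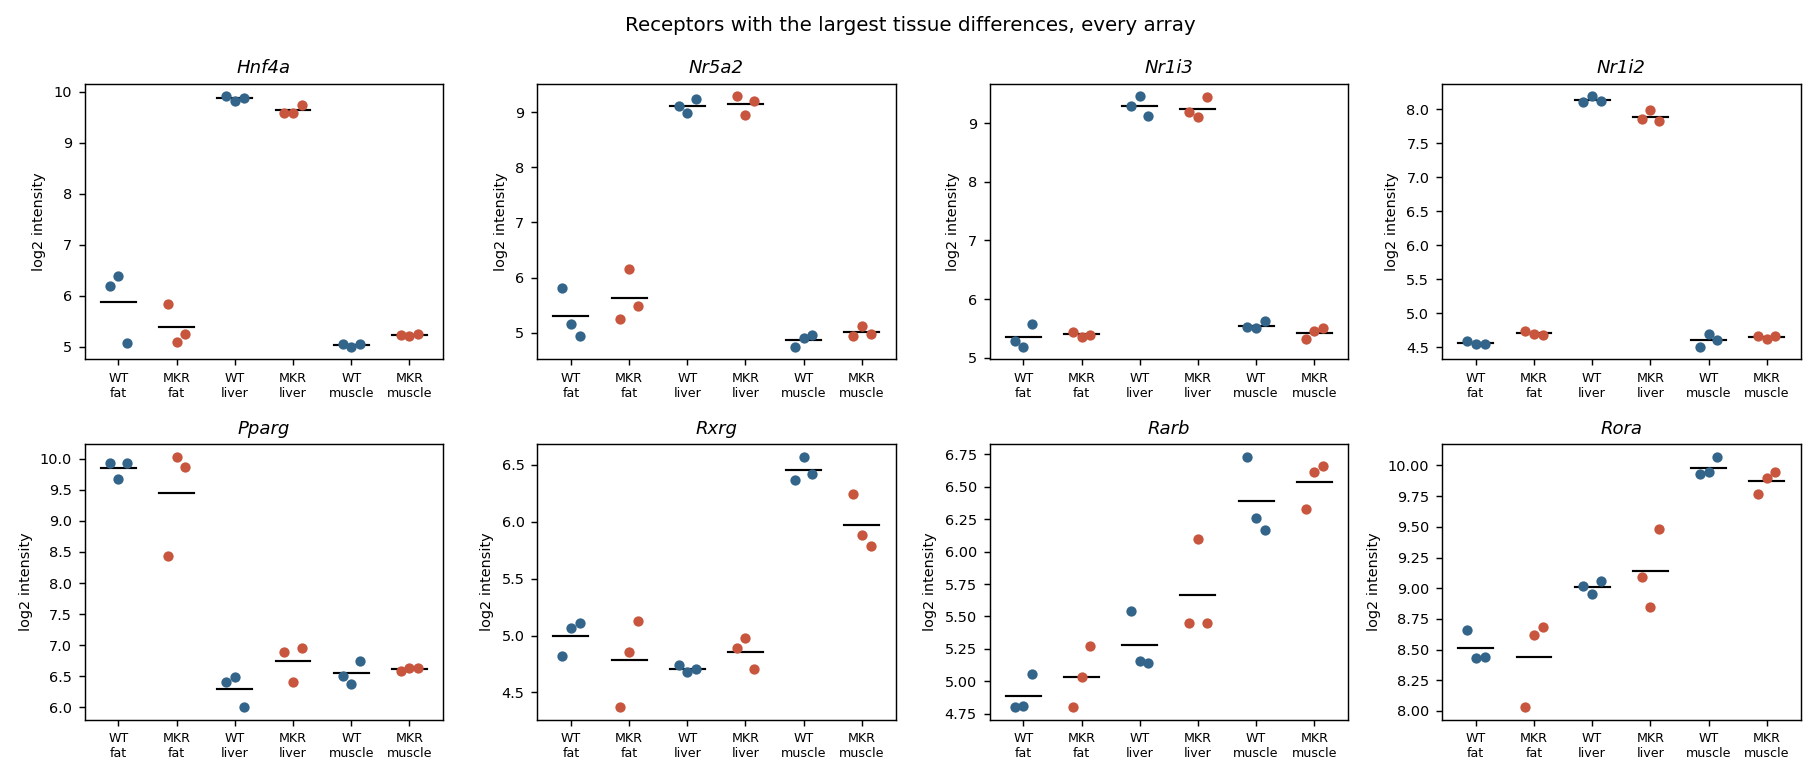
Log2 intensity of every array by genotype and tissue (points, blue WT and red MKR, in mouse order), with the group mean as a line, and a separate vertical scale for each gene. Pparg in MKR fat 1, at 8.44, is the lowest fat value, and the liver and muscle points of the restricted receptors do not reach the other tissues.

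Further receptors were low in a tissue rather than high. Thra, the thyroid hormone receptor that predominates in muscle and heart, was lowest in liver, where it read 6.0, 5.59 and 5.76 against 7.20 to 7.70 in WT fat and 7.59 to 8.03 in WT muscle. Liver was 1.63 ± 0.16 below fat (adjusted p = 5.06e-06), the reverse of the order for Thrb. Nr2c2 (TR4) was also lowest in liver, by 0.42 to 0.49. Fat was lowest for Esrra (5.16 ± 0.06 against 5.51 in liver and 5.78 in muscle, SD and n = 3), for Nr3c2 (5.41 ± 0.14 against 6.08 and 6.06), and also for Rxra and Rora. Esrra was below the dim level in WT fat and WT liver. These calls rest on all 3 WT fat arrays. With WT fat 3 as the lone fat array, fat minus liver was -0.39 for Esrra and 0.41 for Nr2c2, and fat minus muscle was -0.33 for Rxra. These differences were then no longer called, and a lone array cannot decide them. For 5 receptors only a pair of tissues differed, namely Rara (liver above fat by 0.40), Nr2e1 (liver above fat by 0.33), Rarg (fat above liver by 0.52), Nr3c1 (muscle above liver by 0.46) and Pgr (liver above muscle by 0.40). Nr2e1 and Pgr were dim in all groups. Without WT fat 1 and 2, fat minus liver was -0.52 for Rara, -0.24 for Nr2e1 and 0.43 for Rarg, from a lone fat array, and was not called. The 11 with no call were Rxrb, Rorb, Nr1h2, Vdr, Hnf4g, Nr2e3, Nr2f6, Esr1, Esr2, Esrrb and Nr5a1. The ubiquitous LXR beta (Nr1h2) had tissue means of 5.99 to 6.26.

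The MKR arrays did not enter these tests, so the same order can be read in them without any further call. All 3 MKR arrays of the leading tissue lay above all other MKR arrays for 7 of the 9 liver receptors, 2 of the 3 fat receptors and 3 of the 5 muscle receptors. For all genes so called the shares were 80.4%, 61.3% and 75.8%. In MKR mice the lead was 4.24 for Hnf4a, 3.52 for Nr5a2, 3.82 for Nr1i3, 3.19 for Nr1i2 and 2.70 for Pparg. The exceptions were Nr6a1 (0.48 in WT, 0.02 in MKR), Nr2c1 (0.38 and 0.26), Nr2f1 (0.58 and 0.12), Esrrg (0.79 and 0.10) and Ppard (0.40 and 0.08). Without MKR fat 1, Ppard was no longer an exception, its MKR muscle arrays lying above all other MKR arrays. The other exceptions remained.

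The MKR comparison asks which receptors differ in transcript level between diabetic and healthy animals in each tissue. With all 18 arrays, limma called 0 of 37 receptors in fat (0.0393% of all genes), 0 in liver (0.0344%) and 0 in muscle (0.201%), and 0 again in each tissue without MKR fat 1 (0.152%, 0.0835% and 0.712% of all genes) or without the 3 fat arrays (0.413%, 0.0589% and 0.717%). The smallest adjusted p was 0.495 in fat, 0.592 in liver and 0.176 in muscle. At an unadjusted p under 0.05 there were 6 receptors in fat (7.78% of all genes), 2 in liver (5%) and 7 in muscle (10.5%). The median change was -0.06, -0.01 and -0.02, against 0 for all genes in each tissue. The 95% intervals, which are not adjusted for the number of genes, reached 0.16 to 0.62 to either side, with a median of 0.25. Smaller changes than these were not detectable, and larger ones could still miss the adjusted threshold. An exact permutation test of 3 arrays against 3 cannot give a p below 0.1. In the fit with weights for array quality, 2 receptors in fat and 2 in muscle were called, and they are named below. That fit called 774 of 20358 genes in fat and 404 in muscle, against 8 and 41 without weights.

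**Figure D3:**
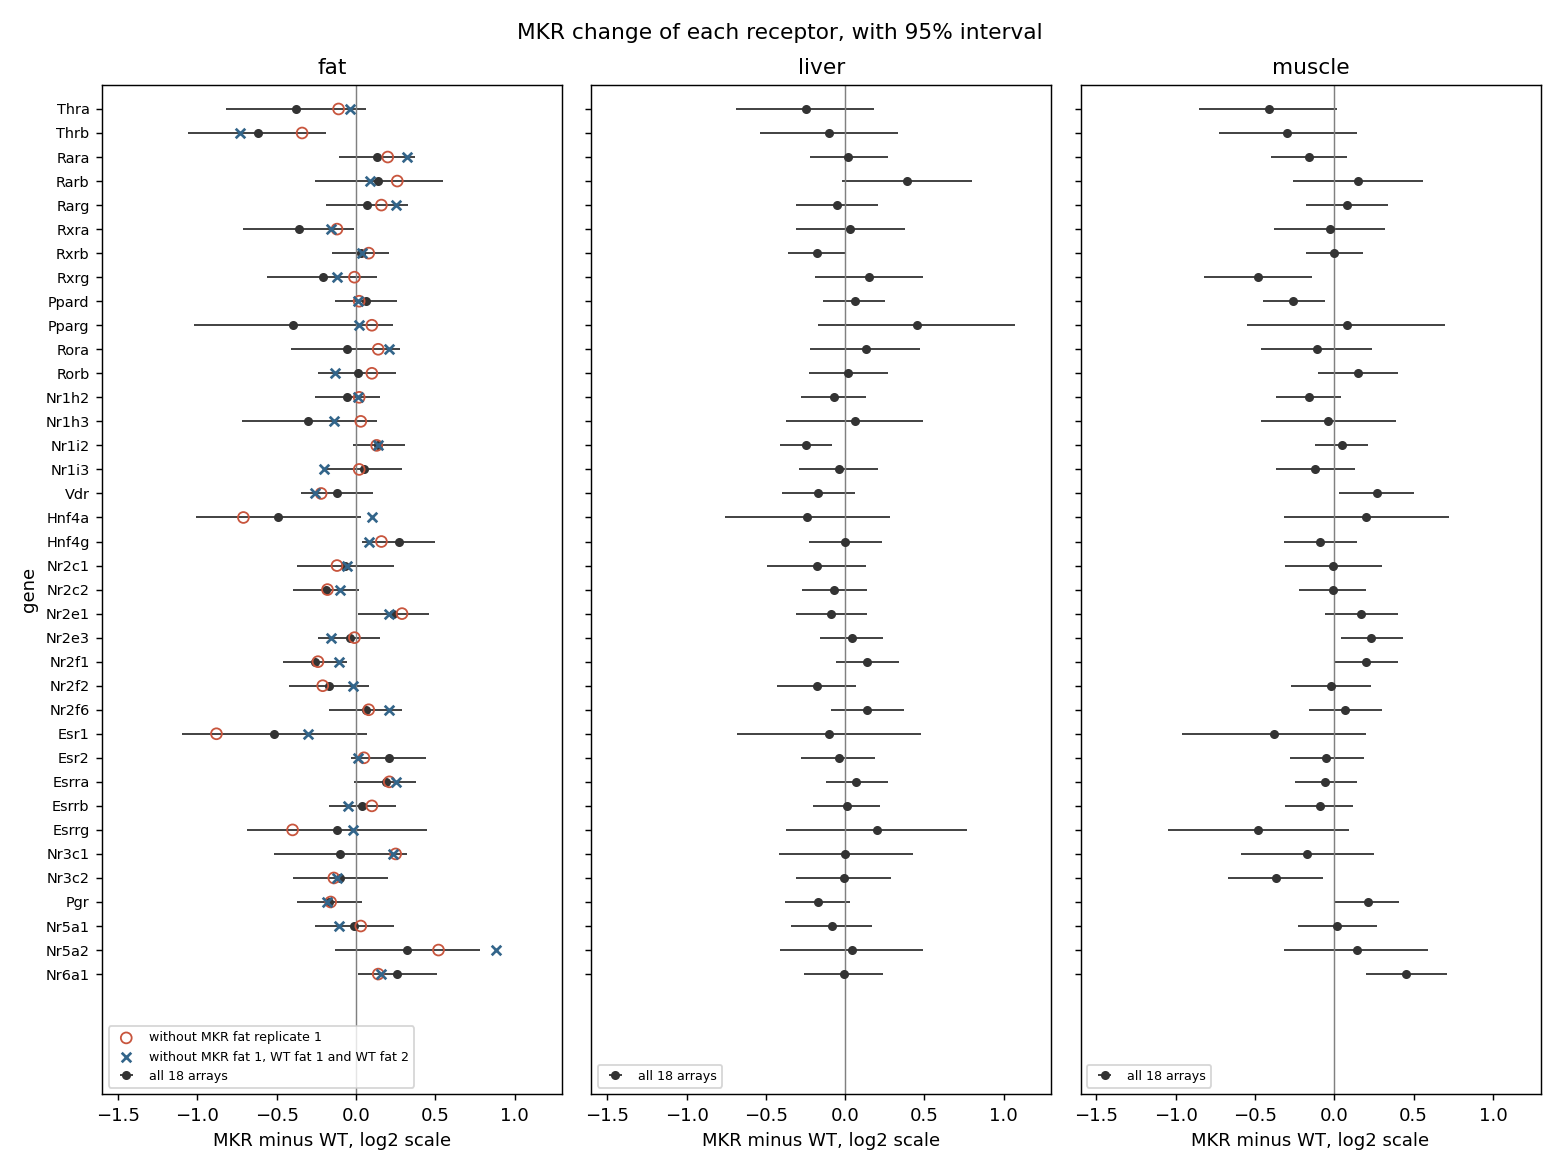
Log2 change (MKR minus WT) of each receptor in fat, liver and muscle from limma over 18 arrays, as filled points with 95% intervals. Open circles leave out MKR fat 1 and crosses also WT fat 1 and 2. Hnf4a, Esr1 and Nr5a2 are among those that move with the set of arrays in fat. The intervals, not adjusted for the number of genes, are clear of 0 for 6 receptors in fat, 2 in liver and 7 in muscle, among them Nr6a1 and Rxrg. The shares of all genes are 7.78%, 5% and 10.5%, and 0 receptors passed after adjustment.

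In fat, the receptor with the smallest p was Thrb. It read 6.19, 6.80 and 7.27 in MKR fat and 7.13, 7.23 and 7.76 in WT fat, so the groups overlapped. The change was -0.62 ± 0.20 (unadjusted p = 0.00774, adjusted p = 0.495). It was -0.34 without MKR fat 1, the array with the low adipocyte markers, and -0.73 without the 3 fat arrays (adjusted p = 0.15). All 14 Thrb probe sets had lower means in MKR fat with all arrays, as had all 13 of Pparg, all 10 of Esr1 and all 4 of Nr2f1. Probe sets were not counted without MKR fat 1. Rxra gave -0.36 (unadjusted p = 0.0434), and -0.12 without MKR fat 1, whose value of 6.17 was the lowest of the fat arrays. Pparg read 8.44, 10.03 and 9.86 in MKR fat against 9.93, 9.67 and 9.93 in WT fat. Its change was -0.40 with all arrays and 0.10 without MKR fat 1, with an interval of -0.26 to 0.47. The largest rise in fat was that of Nr5a2, which averaged 5.63 in MKR fat and 5.3 in WT fat, near the dim level, with overlap. The Nr5a2 change was 0.32 with all arrays, 0.52 without MKR fat 1 and 0.88 without the 3 fat arrays, which leaves a lone WT array. All 11 Nr5a2 probe sets had higher means in MKR fat with all arrays, and Nr5a2 was not called.

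The other named receptors of fat were dim. Nr2f1 read 5.08, 5.05 and 5.22 in MKR fat, below 5.49, 5.39 and 5.25 in WT fat, a change of -0.26 ± 0.10 (adjusted p = 0.539). It was -0.11 without the 3 fat arrays. Hnf4g, an HNF4 form of gut and kidney, read 4.69, 4.39 and 4.34 against 4.15, 4.17 and 4.29 (0.27 ± 0.11, adjusted p = 0.579). Nr2e1, a brain and retina receptor, read 4.88, 5.09 and 5.02 against 4.69, 4.76 and 4.85 (0.23 ± 0.11, adjusted p = 0.634). Over single omissions and the omission of the 3 fat arrays, the change ran from 0.08 to 0.34 for Hnf4g and from 0.19 to 0.29 for Nr2e1. Hnf4g and Nr2e1 were higher in every MKR array than in any WT array, as were Nr6a1, Esrra and Nr1i2. Nr2f1, Nr2c2 and Pgr were lower in every MKR array. With all arrays, 8 of 37 did not overlap (11.7% of all genes), 5 higher (5.85%) and 3 lower (5.87%).

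Esr1, Hnf4a and Esrrg, named after their values were seen, were higher in each of the 3 fat arrays with high epithelial and cilia genes than in the other 3. Esr1, the oestrogen receptor that is also abundant in male reproductive tract epithelium, read 7.86 in MKR fat 1, 7.83 in WT fat 1 and 8.05 in WT fat 2, against 6.73, 6.81 and 7.07 in MKR fat 2, MKR fat 3 and WT fat 3. Its change was -0.52 with all arrays, -0.88 without MKR fat 1 (adjusted p = 0.163) and -0.30 without the 3 arrays (adjusted p = 0.91). Hnf4a read 5.83, 6.18 and 6.38 in the former arrays and 5.09, 5.25 and 5.06 in the latter. Its change was -0.49, -0.71 without MKR fat 1 (adjusted p = 0.293) and 0.10 without the 3 arrays (adjusted p = 0.992). Esrrg read 6.17, 5.76 and 6.06 against 5.11, 5.53 and 5.34. Nr2f2 and Nr2c1 were split in the same way by 0.10 and 0.07, so that 5 of 37 receptors (13.5%) showed such a split, beside 2068 of 20358 genes (10.2%). Array weights called Esr1 (-1.07, adjusted p = 0.00327) and Hnf4a (-1.0, adjusted p = 0.00328) in fat. The part of the epithelial genes in these values was not tested beyond leaving out the arrays.

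**Figure D4:**
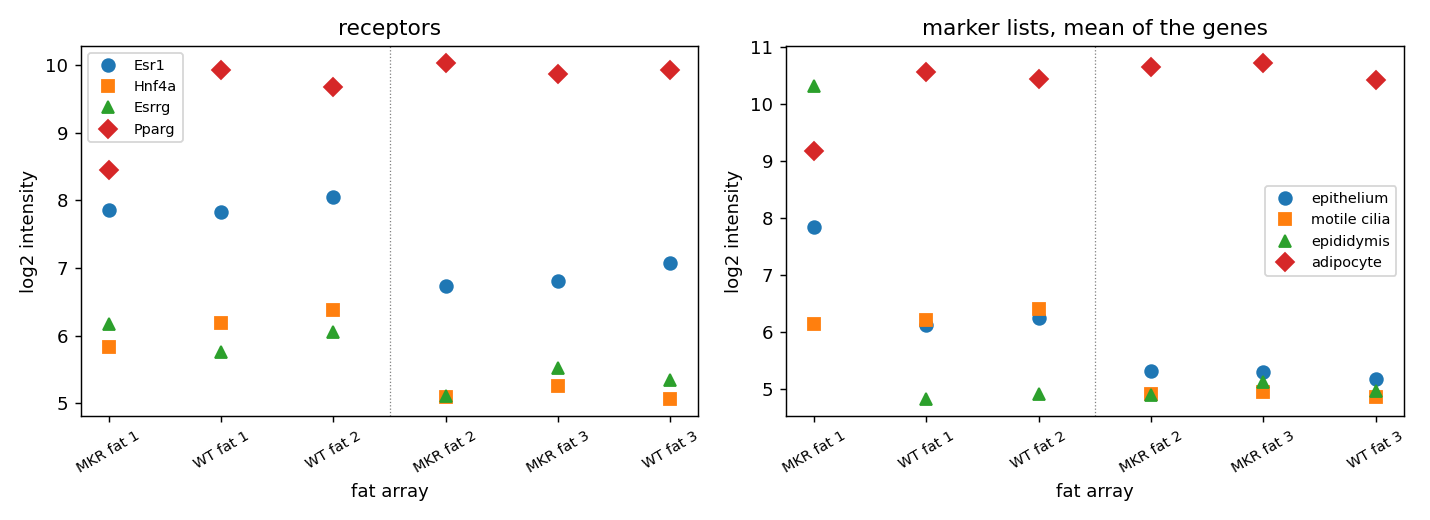
Log2 intensity in the 6 fat arrays, with receptors at the left and the mean of each marker list at the right. The 3 arrays before the dotted line have high epithelial and cilia genes together with high Esr1, Hnf4a and Esrrg, whereas the epididymis list is high, and Pparg low, in MKR fat 1 alone.

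In liver, PXR (Nr1i2) read 7.86, 7.99 and 7.82 in MKR mice and 8.10, 8.19 and 8.12 in WT mice, without overlap. The change was -0.25 ± 0.08 (unadjusted p = 0.00544, adjusted p = 0.592), with 10 of 11 probe sets lower. Hnf4a was likewise lower in every MKR liver array, at 9.58, 9.58 and 9.73 against 9.91, 9.81 and 9.88 (-0.24, 95% interval -0.76 to 0.28, adjusted p = 1). The interval takes its width from the spread shared by the fit. The SD of Hnf4a was 0.08 in MKR liver and 0.05 in WT liver, but 0.39 in MKR fat and 0.71 in WT fat. Rxrb, at dim intensities, read 5.06, 4.99 and 4.87 against 5.12, 5.15 and 5.18 (-0.18 ± 0.08, adjusted p = 0.982). Nr2f1 was higher in every MKR liver array. These 4 were the only receptors of liver whose groups did not overlap (9.43% of all genes), 3 lower (5.31%) and 1 higher (4.11%). Rarb read 5.45, 6.10 and 5.45 against 5.54, 5.16 and 5.14 (0.39 ± 0.19, adjusted p = 1), and Pgr 4.73, 4.71 and 4.84 against 4.75, 4.91 and 5.14 (-0.17, adjusted p = 1). Pparg read 6.89, 6.40 and 6.95 in MKR liver and 6.41, 6.48 and 6.0 in WT liver, a change of 0.45 with an interval of -0.17 to 1.07 that includes both no change and a doubling. CAR, LRH-1 and Rxra had changes of -0.04, 0.04 and 0.03.

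In muscle, the tissue of the transgene, 14 of 37 receptors did not overlap between the genotypes (21.9% of all genes), 7 higher (10.5%) and 7 lower (11.3%) in MKR mice. Nr6a1, an orphan receptor best known from germ cells and early embryos, read 6.40, 6.16 and 6.35 in MKR muscle and 5.91, 5.84 and 5.80 in WT muscle. The change was 0.45 ± 0.12 (95% interval 0.20 to 0.71, unadjusted p = 0.00161, adjusted p = 0.176), with 16 of 17 probe sets higher. Without MKR fat 1, which enters only through the shared spread, its adjusted p was 0.0605. Rxrg read 6.24, 5.88 and 5.79 in MKR muscle and 6.37, 6.57 and 6.42 in WT muscle, a change of -0.48 ± 0.16 (adjusted p = 0.291), with 10 of 12 probe sets lower. Array weights called both (Nr6a1 0.44, adjusted p = 0.0216, and Rxrg -0.55, adjusted p = 0.0278).

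Ppard, which drives fatty acid oxidation genes in muscle, read 6.11, 6.16 and 6.12 in MKR muscle and 6.38, 6.41 and 6.36 in WT muscle. Groups were tight and apart, with a change of -0.26 ± 0.09 (adjusted p = 0.331). Nr3c2, the mineralocorticoid receptor, read 5.68, 5.79 and 5.58 against 6.29, 5.94 and 5.94 (-0.37 ± 0.14, adjusted p = 0.365), with all 8 probe sets lower. Thra read 7.37, 7.16 and 7.62 against 8.03, 7.76 and 7.59 and Esrrg 6.48, 6.52 and 6.84 against 7.39, 6.49 and 7.40. Both overlapped between genotypes, although all 11 Thra and all 9 Esrrg probe sets had lower means in MKR muscle. Probe sets of a gene share the same RNA and are not replicates. Thrb, Nr1h2, Rara and Esr1 were also lower in every MKR array (adjusted p from 0.593 to 0.684). Nr2e3, Vdr, Pgr, Nr2f1, Rorb and Hnf4a were higher in every MKR array, at dim intensities throughout (changes of 0.15 to 0.27).

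**Figure D5:**
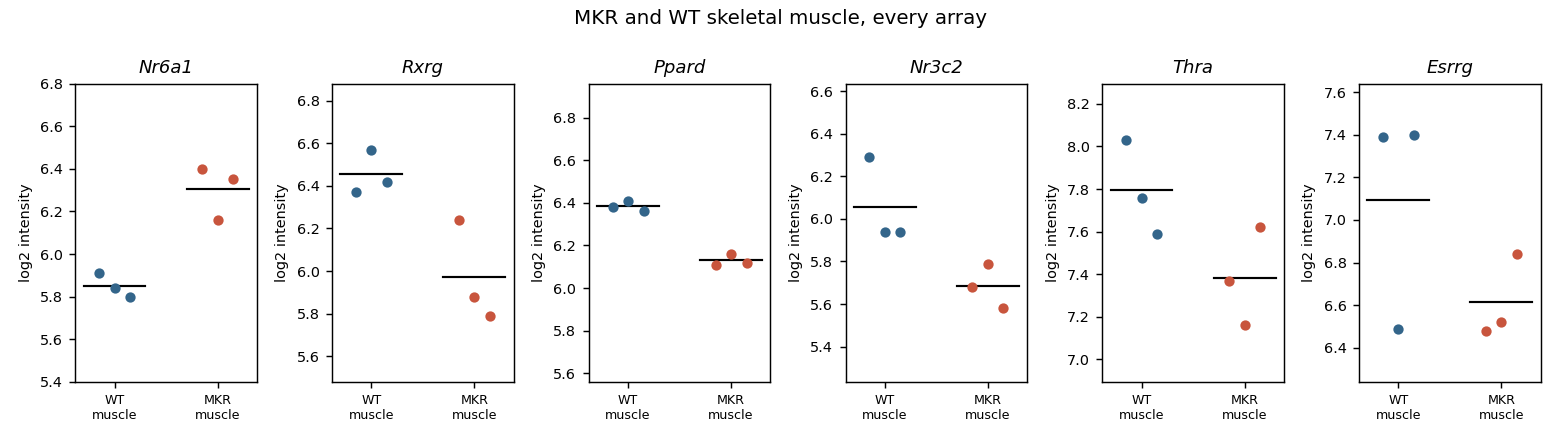
Log2 intensity in the muscle arrays (points in mouse order, line for the mean of 3), each panel spanning the same height of the log2 scale. Nr6a1 lies higher and Rxrg, Ppard and Nr3c2 lie lower in all MKR arrays, and Thra and Esrrg overlap.

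Whether the MKR change differed between tissues was tested as a difference of changes in the same fit. For 37 receptors, 0 passed for fat against liver (0% of all genes), 0 for muscle against liver (0.0737%) and 0 for fat against muscle (0.103%). At an unadjusted p under 0.05 there were 2, 6 and 5 (6%, 10.3% and 8.03% of all genes). The Nr6a1 change exceeded that of liver by 0.46 in muscle (95% interval 0.10 to 0.82, adjusted p = 0.38), and the Rxrg change minus that of liver was -0.63 (adjusted p = 0.379).

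Partners and target genes of the receptors were read from 15 lists. The coactivators, which receptors recruit to transcribe, had 0 of 13 members called in any tissue. In fat the median of the coactivators was -0.11, and it was -0.14 without MKR fat 1 and -0.07 without the 3 fat arrays. Ppargc1a and Ppargc1b, the PGC-1 partners of oestrogen-related receptors, gave -0.71 and -0.52 in fat with all arrays (adjusted p of 0.518 and 0.424). The corepressors had 0 of 8 called, and all 8 means were lower in MKR muscle (median -0.16), as were 49% of all genes. Of the oestrogen-related receptor targets, mostly mitochondrial genes, 0 of 13 were called. At an unadjusted p under 0.05, 8 were lower in fat (4.25% of all genes were), and 3 were without MKR fat 1 (4.99% of all genes). Their median in fat was -0.38, with -0.16 without MKR fat 1 and -0.19 without the 3 fat arrays. In muscle it was -0.24.

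Targets of the liver receptors gave 0 calls in liver with all arrays. Of 14 PXR and CAR targets, 0 were called in liver with all arrays, and 1 without MKR fat 1: Cyp2b10, a CAR target, which was -1.57 ± 0.28 in MKR liver (adjusted p = 0.0669, and 0.0435 without MKR fat 1), while Cyp2b9 gave 1.69 ± 0.51 (adjusted p = 0.581). Of 17 HNF4A targets 0 were called, Pklr being 1.5 ± 0.31 (adjusted p = 0.125). Of 9 LXR targets in liver 0 were called, 6 means being higher and 3 lower with a median of 0.06, and the smallest p values came with Scd1 at 1.0, Srebf1 at 0.58 and Abca1 at 0.39 (adjusted p of 0.768 to 0.848). All 7 LRH-1 targets had lower means in MKR liver (median -0.23), as had 51.4% of all genes, and 0 were called. The lists are not separate readings: Cyp7a1 and Cyp8b1 are also HNF4A targets here, and Abcg5 and Abcg8 also LXR targets. Among 11 PPAR gamma targets, Cd36, a fatty acid transporter, was 1.96 ± 0.36 in MKR liver (adjusted p = 0.0669, and 0.0435 without MKR fat 1). In fat all 11 means were lower (49.4% of all genes were) with a median of -0.43, which was 0 without MKR fat 1.

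In muscle, the retinoid and glucocorticoid lists gave calls only without MKR fat 1, and the thyroid list gave none. Of 17 retinoid genes, 0 were called with all arrays and 2 without MKR fat 1. Aldh1a1, which makes retinoic acid, changed by -1.92 ± 0.44 in MKR muscle (adjusted p = 0.1, and 0.000322 without MKR fat 1), and Dhrs3, which returns retinal to retinol, by 0.66 ± 0.21 (adjusted p = 0.27, and 0.00803). Of 18 glucocorticoid genes, Fbxo32, an atrophy ubiquitin ligase, gave 0.82 ± 0.19 (adjusted p = 0.1, and 0.0389 without MKR fat 1) and Fkbp5 -1.29 ± 0.40 (adjusted p = 0.251). Of 10 thyroid hormone genes 0 were called in any tissue, with Thrsp at -0.64 in muscle (adjusted p = 0.375). The removal of MKR fat 1 changes these muscle and liver results only through the spread shared by the fit. Of the 10 measured receptors outside the 37, Nr4a3 was called in muscle (2.27 ± 0.19, adjusted p = 9.34e-06). The remaining lists (PPAR delta, vitamin D, oestrogen and progesterone) had 0 of 8, 0 of 6 and 0 of 9 members called in each tissue, with medians from -0.47 to 0.22. The -0.47 is that of the PPAR delta targets in fat, which was -0.03 without MKR fat 1 and -0.25 without the 3 fat arrays.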

How the data were processed

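The deposited values, 1.52 to 3.82 over all arrays, came from the authors' RMA background correction, quantile normalisation and log2 transformation in Partek 6.3. Their range fits log2 applied to values that were already log2 intensities, so each value was turned into a log2 intensity as 2 to its power (2.87 to 14.15). This scale was inferred from the range. Of 241419 probe sets, 212138 carried a single gene symbol in the platform annotation, and their values were averaged per gene. No column of the authors' own comparisons was used. Groups were compared with limma 3.58.1 (R 4.3.3), with group means over the 18 arrays for MKR minus WT and tissue means over the 9 WT arrays, and Benjamini-Hochberg adjustment over 20358 genes at 0.05, two-sided. The procedure was tested on simulated data.

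Each mouse gave 3 tissues, as the titles show by mouse number, so same-numbered WT samples are paired. Their deviations from the group means correlated at -0.12 to 0.20. Numbers pair no MKR mouse with a WT mouse. All values of every array were given for the 4 receptors with the smallest p per tissue in the MKR comparison and for up to 6 with the largest lead per WT tissue. The receptors and lists were chosen with earlier results of these data known. The epithelial and cilia lists, the omission of 3 fat arrays and the target genes with values were chosen after seeing values. So were Esr1, Hnf4a, Esrrg, Pparg and Nr5a2 in the MKR comparison. The mean over probe sets can hide differences between isoforms. Cross-hybridisation was not assessed.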

Additional observations from a re-analysis of the deposited data

Results flagged for a closer look

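In 5 instances all MKR arrays of a receptor lay above all WT arrays in 1 tissue and below them in another, 4.5% of 111 combinations of a receptor and 2 tissues, beside 0.974% over all genes. The 5 were picked for this pattern, 2 of them are Nr2f1, and the shares were not compared by a test. The difference of the changes was tested with limma for each, and none passed after adjustment. The Nr1i2 change was 0.39 higher in fat than in liver (unadjusted p = 0.0026, adjusted p = 0.488). In fat Nr1i2 averaged 4.70 (MKR) and 4.56 (WT), below the dim level. The Nr2f1 change in fat minus that in liver was -0.40 (adjusted p = 0.706), and minus that in muscle -0.46 (adjusted p = 0.356), all at dim intensities. The Hnf4a change in muscle exceeded that in liver by 0.44 (adjusted p = 0.701), in a fit whose spread for Hnf4a includes the more variable fat arrays. In muscle Hnf4a averaged 5.23 (MKR) and 5.03 (WT), below the dim level. The Pgr change in fat minus that in muscle was -0.38 (adjusted p = 0.504), also at dim intensities.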

How the results depend on the processing

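In the MKR comparison, 0 receptors were called in each tissue and in each difference between tissues, except as follows. With array weights there were 2 in fat (Esr1, Hnf4a), 2 in muscle (Nr6a1, Rxrg) and 2 for fat against muscle (Hnf4a -1.21, adjusted p = 0.0212, and Nr2f1 -0.52, adjusted p = 0.0402). The weighted fit called 774, 404 and 422 of 20358 genes in these comparisons. Leaving out each array in turn gave 0 to 1 in fat, the 1 being Hnf4a without WT fat 3 (-0.89, adjusted p = 0.0296). With that omission 53 of 20358 genes were called in fat. An unadjusted p under 0.05 with a fold over 1.5, the thresholds in the study's methods, gave 1 in fat (1.66% of all genes) and 1 for muscle against liver (3.1%). The fat change of Hnf4a ran from -0.89 to 0.10 over single omissions and the omission of 3 fat arrays, which gave the 0.10. That of Esrrg ran from -0.40 to 0.13 over single omissions, turning positive without MKR fat 2 (0.13) and without WT fat 2 (0.05). The cause was not tested.

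In WT mice, the counts were 20 (fat against liver), 18 (muscle against liver) and 13 (fat against muscle). Requiring a difference over 1 gave 8, 8 and 5 (13.8%, 17% and 13.1% of all genes). Array weights gave 23 for fat against muscle, in a fit that called 9651 of 20358 genes. The counts that involve fat were lower with WT fat 1 and 2 left out, which leaves a lone WT fat array. Over single omissions the counts were 18 to 20, 16 to 19 and 11 to 18. With the mouse as a replicate block, the pairing gave 20, 18 and 14 (7484, 8368 and 8028 of 20358 genes), and the MKR counts stayed at 0. Of the tissue-high calls only that of Nr2c1 was lost under the block.

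With the required difference over 1 left aside, the receptors whose lead was called in all 19 other settings were Hnf4a, Nr5a2, Nr1i3, Nr1i2, Thrb, Rxra, Nr6a1, Pparg, Rxrg, Rarb and Rora. Of these, Nr6a1 and Rxra had the least agreement among probe sets, with 11 of 17 and 12 of 15 highest in liver. Signal near the dim level, where intensity differences are compressed, limits what the 11 dim receptors can show.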
